A study of Mus musculus with 6 samples.

Results

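Genes of the BCL2 family were compared between blood stem and progenitor cells of mice lacking miR-21 and of littermate controls. The family was taken as 10 genes chosen by symbol, of which 9 had a probe set that the platform annotation names for 1 gene, out of 30627 genes with such a probe set on the arrays. All 9 were bright enough to be tested, with 19010 genes tested in all. Bax had no probe set named for it in the annotation used and is not analysed here. The genes were grouped by role as BH3-only (Bcl2l11, Bid, Bbc3, Pmaip1 and Bmf), effector (Bak1) and survival (Bcl2, Bcl2l1 and Mcl1) members.

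The cells were Lineage- c-Kit+ Sca1+ (LSK) cells, sorted from bone marrow and containing blood stem cells together with early multipotent progenitors. The knockout group was miR-21flox/flox:Mx1-Cre+ (3 arrays) and the control group miR-21flox/flox:Mx1-Cre- littermates (3 arrays). Mice of both groups were injected with 250 µg of pIpC, a double-stranded RNA analogue that switches on the Mx1 promoter, 7 times, the mice being 4 to 6 weeks old at the start, and marrow was harvested 4 weeks after the injections. The Mx1 promoter responds to interferon in many cell types, so deletion is not limited to blood cells, and only the knockout mice carried Cre, whose own effects cannot be told apart from those of losing miR-21. Replicates are called biological in the sample titles, which do not say whether each was 1 mouse or a pool. The p-values therefore cover the spread from array to array and no more.

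The BCL2 family decides whether the outer membrane of mitochondria is opened, the step that commits most cells to apoptosis. The effectors BAX and BAK1 form the pores, survival members such as BCL2, BCL-XL (Bcl2l1) and MCL1 hold them in check, and BH3-only proteins such as BIM (Bcl2l11) and PUMA (Bbc3) block the survival members or switch on the effectors. In mice, blood stem cells depend on MCL1, and BIM limits the number of blood cells. BIM and MCL1 proteins are also governed by phosphorylation and turnover, which arrays do not measure.

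The microRNA deleted in the knockout is shown with its seed, bases 2 to 8, in capitals (RefSeq, GRCm38.p6, chr11:86584120-86584141, minus strand), since it defines the groups.
mmu-miR-21a-5p: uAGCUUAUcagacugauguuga
The promoter windows of the members with the largest falls, Bcl2l11 and Mcl1, are shown beside a window of Bbc3, a BH3-only gene that did not pass the test, because 2 of these windows hold the same FOXO motif. FOXO factors are known to switch on Bcl2l11 and Bbc3. Each window runs from 250 bases before to 50 bases after a transcript start (RefSeq, GRCm38.p6, plus strand), and capitals mark the FOXO core GTAAACA or its reverse complement TGTTTAC.
Bcl2l11 first start, chr2:128125788-128126087: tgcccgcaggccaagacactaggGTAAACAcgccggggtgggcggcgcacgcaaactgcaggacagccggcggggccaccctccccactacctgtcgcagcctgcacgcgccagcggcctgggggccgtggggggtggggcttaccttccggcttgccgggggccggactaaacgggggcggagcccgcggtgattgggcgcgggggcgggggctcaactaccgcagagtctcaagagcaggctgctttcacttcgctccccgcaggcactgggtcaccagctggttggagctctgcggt
Bcl2l11 second start, chr2:128127325-128127624: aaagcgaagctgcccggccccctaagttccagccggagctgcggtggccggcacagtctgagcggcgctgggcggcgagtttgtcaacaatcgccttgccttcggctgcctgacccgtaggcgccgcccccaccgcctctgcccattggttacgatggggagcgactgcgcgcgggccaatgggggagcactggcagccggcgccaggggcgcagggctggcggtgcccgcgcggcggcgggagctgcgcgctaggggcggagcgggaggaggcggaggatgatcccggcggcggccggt
Bbc3 second start, chr7:16310011-16310310: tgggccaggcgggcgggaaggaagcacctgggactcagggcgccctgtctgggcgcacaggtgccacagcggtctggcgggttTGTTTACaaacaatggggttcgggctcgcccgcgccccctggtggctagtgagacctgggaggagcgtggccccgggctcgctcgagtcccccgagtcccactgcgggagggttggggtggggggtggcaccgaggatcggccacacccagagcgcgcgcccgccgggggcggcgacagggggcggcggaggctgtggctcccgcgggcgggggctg
Mcl1, chr3:95658471-95658770: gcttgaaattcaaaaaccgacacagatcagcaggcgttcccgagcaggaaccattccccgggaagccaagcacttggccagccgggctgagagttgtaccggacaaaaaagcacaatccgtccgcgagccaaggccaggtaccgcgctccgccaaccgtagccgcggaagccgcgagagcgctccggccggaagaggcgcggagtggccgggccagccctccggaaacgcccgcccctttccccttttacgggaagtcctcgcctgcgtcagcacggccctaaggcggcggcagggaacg
The core began 227 bases before the first start of Bcl2l11 and 167 bases before the second start of Bbc3. It was in 3.65% of the 32851 promoter windows of the genome. Pmaip1 was left out of the promoter results, so whether its promoter holds any of these motifs is not reported here. The 9 other members had 16 windows in all, and the 14 apart from those 2 did not hold these letters. Searched on both strands, the cyclic AMP response element TGACGTCA (1.79% of all windows) was in none of the 16. The E-box CACGTG (7.15% of all windows) was in the window of Bax and in the third of Bbc3. The NF-kB consensus (8.46% of all windows) was in 1 window each of Bbc3, Bcl2l1 and Bmf. A match is a run of letters and not a measured binding site.

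Values are the authors' deposited log2 expression values, 1 per gene and array, and differences are knockout minus control. The deposited values of all arrays had medians between 1.89 and 1.95. At the deleted locus, 1 probe set carries the names of both miR-21 and its host gene Vmp1, and had 5.65, 5.64 and 5.76 in knockout arrays against 5.65, 5.60 and 5.63 in control arrays. It spans the host gene and does not check the deletion. The stem cell marker Kit was bright on the arrays, at means of 8.15 in knockout and 8.61 in control. Kit was lower in every knockout array (change -0.46, limma adjusted p = 0.000787). Markers of several other cell types moved with the groups. Of 13 neutrophil and precursor markers tested, 12 rose in the knockout and Itgam fell. Their mean level was 6.58 to 6.72 in knockout arrays against 5.17 to 5.41 in control arrays. All 3 erythroid markers tested rose (Klf1, Epor and Car1), with a mean level of 3.91 to 4.08 in knockout arrays against 3.39 to 3.47 in control arrays. Of 4 monocyte and macrophage markers, Csf1r, Ccr2 and Ly86 rose and Cd14 did not pass (3.84 to 4.06 in knockout arrays against 3.21 to 3.38 in control arrays). Both NK cell markers tested, Klrb1c and Nkg7, rose (5.42 to 5.53 in knockout arrays against 4.88 to 5.01 in control arrays), and of 4 megakaryocyte markers Pf4 and Itga2b rose (4.75 to 4.81 in knockout arrays against 4.51 to 4.52 in control arrays). Of 5 B cell markers Cd79b rose and 4 did not pass (3.97 to 4.00 in knockout arrays against 3.92 to 3.95 in control arrays), and of 4 T cell markers Thy1 rose and 3 did not pass (2.60 to 2.67 in knockout arrays against 2.51 to 2.60 in control arrays). Markers whose mean over all arrays lay under the dim level of 1.92, the median of all probe sets, were not tested. They were Cd3d and Cd3g (T cells), Ms4a1 (B cells), Klrd1 and Ncr1 (NK cells), Alas2 (erythroid cells) and Adgre1 (macrophages). Of these, Ncr1, just under the dim level, and Adgre1 were higher in every knockout array. Among 9 stem and progenitor markers, 6 fell (Kit, Procr, Mecom, Hlf, Meis1 and Flt3), Slamf1 rose and Cd34 and Gata2 missed the threshold. Of all genes tested, 19.1% rose and 12.0% fell. The part of such shifts in cell makeup in the changes of the BCL2 family was not tested, and in bulk RNA fewer cells of a type and less RNA per cell cannot be told apart.

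Of the 9 members, Bcl2l11 and Mcl1 fell in the knockout, Bak1 and Bid rose, and 5 did not pass an adjusted p of 0.05 in limma. A pro-death and a survival member were thus the 2 that fell. Among all 19010 genes 31.1% passed, 19.1% higher and 12.0% lower, and the 4 of 9 members stand against that background. For 6 of the 9 members no knockout value lay within the range of the control values, nor the reverse, against 47.9% of all genes. In 4 of these every knockout array was higher (30.9% of all genes) and in 2 every knockout array was lower (17.0%). With 1 array left out, 2 members still fell, while the number that rose was 1 on dropping knockout array 1, knockout array 3 or control array 3, and 3 on dropping knockout array 2. The median change of the 9 was 0.13 on the log2 scale, and that of all genes was 0.07.

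**Figure D1:**
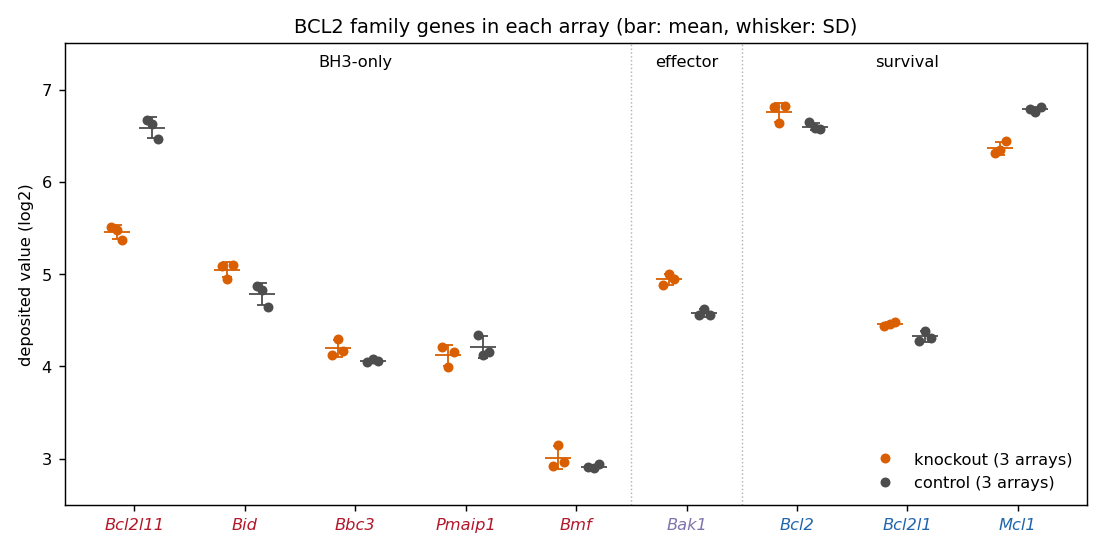
Deposited log2 value (vertical axis) of each BCL2 family gene in the 3 knockout (orange) and 3 control (grey) arrays, with the mean and SD of each group. The knockout arrays of Bcl2l11 lie at 5.37 to 5.51 and the control arrays at 6.46 to 6.67, the widest separation of the 9 genes.

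BH3-only members start the pathway. Bcl2l11, which encodes BIM, a protein that binds all survival members and can switch on BAX and BAK1, had 5.51, 5.48 and 5.37 in the knockout arrays and 6.67, 6.63 and 6.46 in the control arrays. Every knockout array was lower than every control array, with a gap of 0.95 between the groups, while the widest spread within a group was 0.21. Bcl2l11 fell by 1.13 ± 0.07 (SE, 2.19-fold lower, 95% interval of the change -1.30 to -0.96, limma adjusted p = 1.32e-05). Its change was the 93rd lowest of 19010 genes. Over 15 alternative settings the change lay between -1.20 and -1.09 and the adjusted p between 8.59e-06 and 0.000107. The probe set gives 1 value for the gene, so the splice forms of BIM, which differ in how strongly they kill, cannot be told apart.

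Bid went the other way. It encodes a protein that caspase 8 cuts to link death receptors to mitochondria. Its values were 5.09, 4.95 and 5.10 in the knockout arrays and 4.87, 4.83 and 4.65 in the control arrays. The groups did not overlap, but the gap of 0.08 was narrower than the spread of 0.23 within the control arrays. Bid rose by 0.26 ± 0.08 (SE, 1.20-fold, limma adjusted p = 0.0297). The call was lost without knockout replicate 1 (0.24, adjusted p = 0.0901), knockout replicate 3 (0.24, 0.0954) or control replicate 3 (0.19, 0.0827), and with arrays centred on their medians (0.25, 0.0537).

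The other 3 BH3-only members did not pass. Bbc3, the gene of the p53 target PUMA, had 4.13, 4.30 and 4.17 in the knockout and 4.05, 4.08 and 4.06 in control, with no overlap and a change of 0.13 ± 0.06 (SE, 95% interval -0.0096 to 0.28, limma adjusted p = 0.139). Pmaip1, the gene of NOXA, which mainly targets MCL1, had 4.22, 4.00 and 4.15 in the knockout and 4.34, 4.13 and 4.15 in control, values that overlapped (change -0.09 ± 0.08, SE, 95% interval -0.27 to 0.098, limma adjusted p = 0.444). Bmf, whose protein is held by the dynein light chain of the cytoskeleton, had 2.93, 3.15 and 2.96 in the knockout and 2.91, 2.90 and 2.94 in control (change 0.10 ± 0.07, SE, 95% interval -0.06 to 0.26, limma adjusted p = 0.314). Its level was the nearest of the members to the dim level. These intervals do not reach the size of the fall of Bcl2l11 in either direction.

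The effector measured was Bak1, whose protein sits in the outer mitochondrial membrane. Bak1 had 4.89, 5.01 and 4.95 in the knockout arrays and 4.56, 4.63 and 4.56 in the control arrays. The gap between the groups was 0.26, more than the widest spread of 0.12 within a group. Bak1 rose by 0.36 ± 0.06 (SE, 1.29-fold, 95% interval 0.23 to 0.50, limma adjusted p = 0.00229), and its adjusted p stayed at or below 0.0106 in 15 alternative settings.

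Survival members did not share a direction. Mcl1, whose short-lived protein is the survival factor that mouse blood stem cells need, had 6.31, 6.34 and 6.44 in the knockout arrays and 6.79, 6.76 and 6.81 in the control arrays. All knockout arrays lay below all control arrays, by at least 0.32. Mcl1 fell by 0.42 ± 0.06 (SE, 1.34-fold lower, 95% interval of the change -0.56 to -0.29, limma adjusted p = 0.00113). The change lay between -0.46 and -0.39 over the 15 alternatives, and the adjusted p reached 0.00641 at most.

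Bcl2 and Bcl2l1 had positive changes that did not pass. Bcl2, the founding survival gene, had 6.81, 6.64 and 6.82 in the knockout and 6.64, 6.58 and 6.57 in control, where the lowest knockout array and the highest control array nearly coincided. Its change was 0.16 ± 0.07 (SE, 95% interval 0.0027 to 0.31, limma adjusted p = 0.111). Without knockout replicate 2 it was 0.21 and passed (adjusted p = 0.0402), and it also passed with array weights (0.19, 0.0409). Bcl2l1, whose main product BCL-XL protects erythroid cells and platelets, had 4.44, 4.46 and 4.48 in the knockout and 4.28, 4.39 and 4.31 in control. Its groups did not overlap, and the change was 0.14 ± 0.06 (SE, 95% interval 0.0078 to 0.27, limma adjusted p = 0.0990). After a second quantile normalization Bcl2l1 was at 0.18 and passed (adjusted p = 0.0389).

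**Figure D2:**
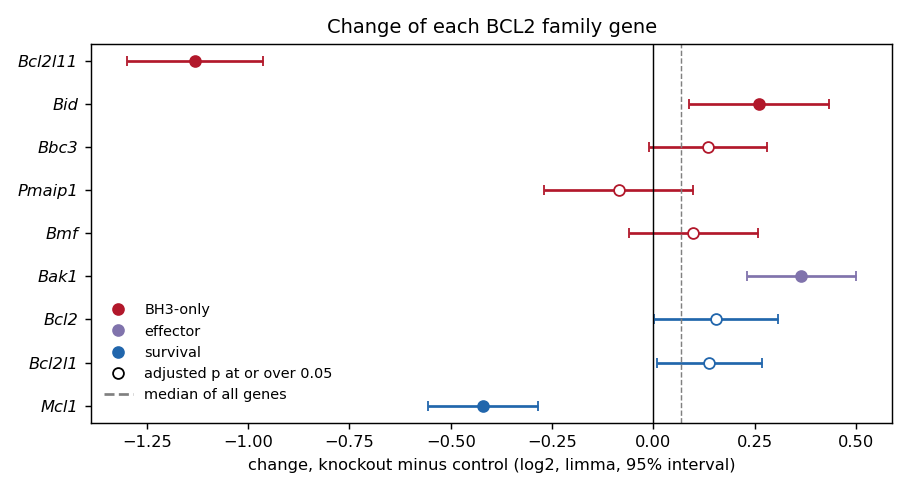
Change of each BCL2 family gene, knockout minus control on the log2 scale (horizontal axis), with the 95% interval from limma; filled points had an adjusted p under 0.05 and the dashed line is the median of all genes, 0.07. Bcl2l11 at -1.13 and Mcl1 at -0.42 lie left of 0, and Bak1 at 0.36 and Bid at 0.26 lie right of it.

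By role, the 5 BH3-only members had a median change of 0.10, with 1 higher, 1 lower and 3 not passing. The 3 survival members had a median of 0.14, with 0 higher, 1 lower and 2 not passing. Among all genes 19.1% were higher, 12.0% were lower and the median change was 0.07. Whether the roles differ was not tested. The mean over the BH3-only members, taken relative to the control mean of each gene, was -0.14, -0.13 and -0.16 in the knockout arrays, against 0.06, 0.0036 and -0.06 in the control arrays. Mean and median differ in sign, and of the 5 genes Bcl2l11 and Pmaip1 (-0.086) had negative changes. The same mean over the survival members was -0.05, -0.09 and 0.012 in the knockout arrays and 0.0012, 0.0073 and -0.0085 in the control arrays, with Mcl1 on one side and Bcl2 and Bcl2l1 on the other.

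Differences between members within an array do not depend on the scaling of that array. Relative to the mean of the control arrays, Bcl2l11 minus Mcl1 was -0.60, -0.66 and -0.87 in the knockout arrays and 0.08, 0.07 and -0.15 in the control arrays, so Bcl2l11 fell by 0.71 more than Mcl1. Bak1 minus Mcl1 was 0.78, 0.87 and 0.71 in the knockout arrays and -0.03, 0.07 and -0.04 in the control arrays, a difference of 0.79. Bcl2l1 minus Mcl1 was 0.59, 0.58 and 0.50 in the knockout and -0.05, 0.09 and -0.04 in control, a difference of 0.56. Bcl2 minus Mcl1 differed by 0.58 and Bcl2l11 minus Bid by -1.39. None of these 5 pairs overlapped between the groups, and each had an exact two-sided permutation p of 0.1 before any adjustment, the smallest that 3 arrays against 3 allow. The pairs were chosen after the members' values had been seen. In Bak1 minus Mcl1, Bcl2l1 minus Mcl1 and Bcl2l11 minus Bid, both genes already lay apart in opposite directions. In Bcl2l11 minus Mcl1 and Bcl2 minus Mcl1, the ranges of both genes in each group also left no room for overlap. For all 5 pairs the lack of overlap and the p of 0.1 were thus fixed in advance and add no support. The share of all gene pairs without overlap was not computed.

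**Figure D3:**
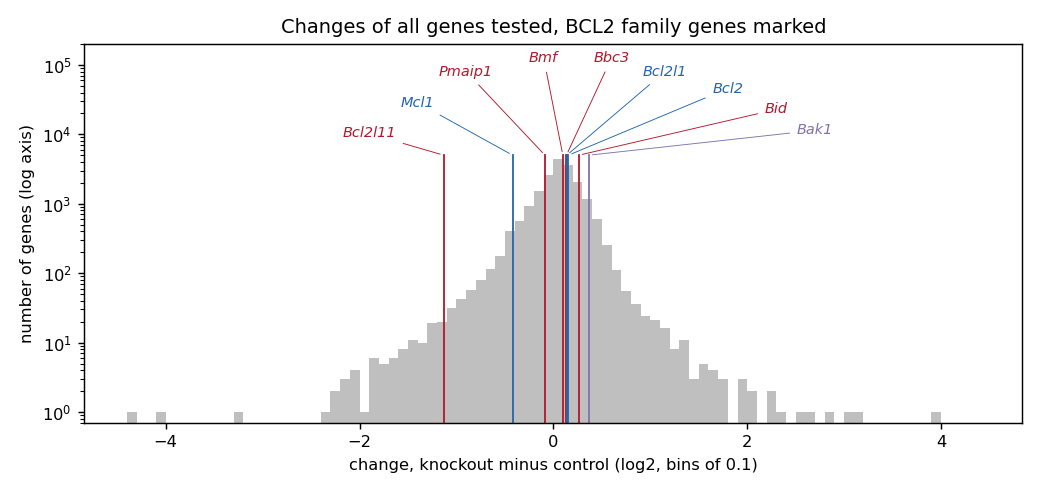
Number of genes (log axis) by change, knockout minus control on the log2 scale, for the 19010 genes tested, with the 9 BCL2 family genes marked. Bcl2l11 stands in the lower tail, while Bmf, Bbc3, Bcl2l1 and Bcl2 lie in the bulk at 0.10 to 0.16.

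Against the whole transcriptome the members fell into 3 ranges. Bcl2l11 had a larger absolute change than 99.2% of genes. Mcl1 exceeded 90.0%, Bak1 86.0% and Bid 74.7%. The 5 others were near the middle or below it, between 31.9% for Pmaip1 and 54.2% for Bcl2. The genes whose values over the 6 arrays were most like those of Bcl2l11 were Rela, which encodes the p65 subunit of NF-kB (change -0.56), the stress gene Gadd45b (-0.98) and Crim1 (-1.12), each with a Pearson r of 0.999. For Bak1 they were Adap1 (0.29), Ralb (0.24) and Zbtb3 (0.71), and for Mcl1 they were Golph3 (-0.40), Mapre1 (-0.26) and Crem (-0.64), with r of at least 0.996. Such values are common in 6 arrays that fall into 2 groups. Provisional, mitochondrial and small RNA symbols were left out here, and 890 of the remaining genes had an r over 0.95 with Bcl2l11.

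Genes that act with the members were read from 8 lists by function. Of 83 genes, 73 had a probe set of their own, 5 of these were dim and 68 were tested. In all, 13 rose, 18 fell and 37 did not pass, beside 19.1% higher and 12.0% lower among all genes. Without knockout replicate 3 the number that rose was 6, and without control replicate 2 it was 7. Their median change was 0.0092, against 0.07 for all genes.

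Among relatives of the members, the changes were at most 0.31 in size, where the median absolute change of all genes was 0.14. The survival relative Bcl2a1a, an NF-kB-driven gene of myeloid cells, had 2.59, 2.93 and 2.81 in the knockout arrays and 3.08, 3.04 and 3.11 in the control arrays, all knockout arrays lower. It fell by 0.30 ± 0.08 (SE, limma adjusted p = 0.0253), and lost the call without knockout replicate 1 (-0.21) or 3 (-0.32) and without control replicate 1 (-0.30) or 3 (-0.29). The Bcl2a1 genes are near-identical copies, so this value may hold signal of the others. Bcl2l2, which encodes BCL-W, was at 0.12 and did not pass (adjusted p = 0.163). Of 5 further pro-death relatives, Bad, a BH3-only gene whose protein is switched off by phosphorylation, rose by 0.31 ± 0.07 (SE, limma adjusted p = 0.00843), and Bik, Hrk, Bok and Bcl2l14 did not pass, with changes of 0.06 to 0.17. Of 6 other genes named for the family, Bcl2l12 rose by 0.28, Bclaf1 fell by 0.30 and 4 did not pass. Bclaf1 encodes an RNA-processing factor named for binding BCL2. These counts stand beside 19.1% higher and 12.0% lower among all genes. Leaving out any 1 of knockout replicates 2 and 3 and control replicates 2 and 3 ended the call on Bcl2l12 (0.23 to 0.28).

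**Figure D4:**
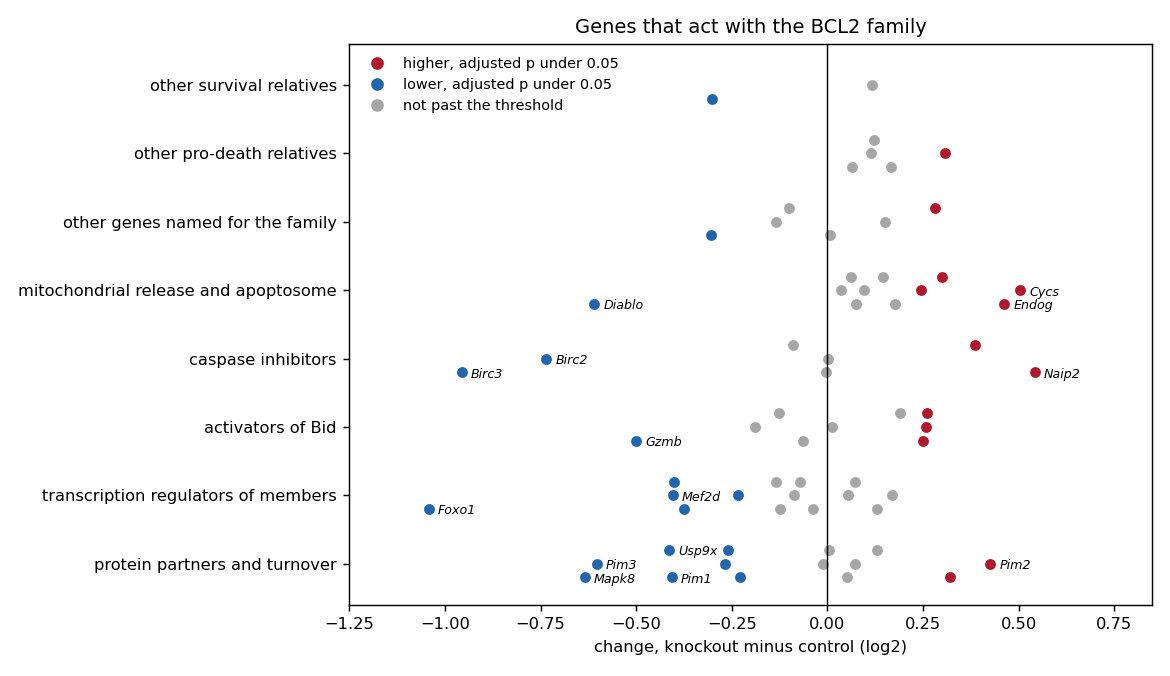
Change of each tested gene, knockout minus control on the log2 scale (horizontal axis), in 8 lists of genes that act with the BCL2 family; colours mark the limma call, and points are spread vertically only for legibility. Birc3 and Foxo1 lie farthest left, at -0.96 and -1.04, and Naip2 and Cycs farthest right, at 0.54 and 0.50.

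Downstream of the pores, 4 of 11 genes of mitochondrial release and the apoptosome rose and 1 fell. Among all genes 19.1% were higher and 12.0% lower. The other 6 of the 11 missed the threshold, and the median change was 0.15. Cycs, the gene of cytochrome c, which also serves the respiratory chain, rose by 0.50 ± 0.11 (SE, limma adjusted p = 0.00951). The nuclease gene Endog rose by 0.46, the protease gene Htra2 by 0.30 and the channel gene Vdac3 by 0.25. Diablo, whose protein SMAC frees caspases from their inhibitors, had 4.79, 4.95 and 4.84 in the knockout arrays and 5.45, 5.57 and 5.39 in the control arrays, well apart. Diablo fell by 0.61 ± 0.07 (SE, limma adjusted p = 0.000359). Leaving out knockout replicate 1 or 3, or control replicate 2 or 3, ended the call on Htra2 (0.25 to 0.30). For Vdac3 this held for knockout replicates 1 and 3 and control replicate 2 (0.19 to 0.27).

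Caspase inhibitors split. Of 7 tested, 2 fell, against 12.0% of all genes, and 2 rose, against 19.1%. The other 3 missed the threshold, and the median change was -0.0038. Birc3, which encodes cIAP2, a ubiquitin ligase induced by NF-kB, had 4.51, 4.52 and 4.47 in the knockout arrays and 5.46, 5.53 and 5.39 in the control arrays. The groups lay 0.87 apart, and Birc3 fell by 0.96 ± 0.06 (SE, 1.94-fold lower, limma adjusted p = 1.20e-05). Birc2, the gene of the related ligase cIAP1, fell by 0.74 ± 0.06 (SE, limma adjusted p = 2.94e-05). The genes that rose have other main roles: Birc5 (0.39), whose product survivin works in mitosis, and Naip2 (0.54), a sensor of bacterial proteins in mouse inflammasomes. Xiap, the gene of the direct caspase inhibitor, was at -0.0038 ± 0.06 (SE, limma adjusted p = 0.967).

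Upstream of Bid, 3 of 9 genes rose, against 19.1% of all genes, and 1 fell, against 12.0%. For the other 5 the test was not passed, and the median change was 0.011. Fadd, the adaptor of death receptors, rose by 0.26, the calpain gene Capn1 by 0.25 and the cathepsin gene Ctsb by 0.26, and the granule protease gene Gzmb fell by 0.50 ± 0.08 (SE, limma adjusted p = 0.00158). Casp8 itself was at 0.011 (adjusted p = 0.900). The 3 rises were not stable. Fadd lost its call without knockout replicate 3 (0.22) or control replicate 2 (0.22). Capn1 lost it without knockout replicate 2 (0.21) or 3 (0.25) or control replicate 3 (0.19), and when each array was centred on the median of the genes tested (0.21). Ctsb lost it in 7 of 15 settings (0.18 to 0.29).

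Of 14 transcription regulators of the members, 0 rose, against 19.1% of all genes, and 5 fell, against 12.0%. The other 9 missed the threshold, and the median change was -0.11. Foxo1, a factor that switches on Bcl2l11 in several cell types, had 4.57, 4.34 and 4.61 in the knockout arrays and 5.69, 5.50 and 5.46 in the control arrays. The groups were 0.84 apart. Foxo1 fell by 1.04 ± 0.09 (SE, 2.06-fold lower, limma adjusted p = 6.55e-05), and Foxo3, which keeps mouse blood stem cells quiescent, by 0.40 ± 0.06 (SE, limma adjusted p = 0.00118). Foxo4 was at -0.04 and did not pass (adjusted p = 0.697). Mef2d fell by 0.40. Ddit3, the gene of the stress factor CHOP, fell by 0.37, and Atf4, which acts above it, fell by 0.23. Ddit3 lost its call as the mean of its probe sets (-0.31, adjusted p = 0.0629). Atf4 lost it without any 1 of knockout replicates 1, 2 and 3 or control replicates 1 and 2 (-0.24 to -0.19). Of the p53 relatives, Trp73 was at 0.17 (adjusted p = 0.0794), Trp63 was dim and Trp53 had no probe set of its own.

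Among 14 genes of protein partners and turnover, 7 fell, against 12.0% of all genes, and 2 rose, against 19.1%. The remaining 5 missed the threshold, and the median change was -0.12. Mapk8, the gene of the kinase JNK1, which phosphorylates BIM and MCL1, had 4.66, 4.43 and 4.51 in the knockout and 5.23, 5.09 and 5.18 in control, and fell by 0.63 ± 0.07 (SE, limma adjusted p = 0.000362). Usp9x, whose product removes ubiquitin from MCL1, fell by 0.41 ± 0.06 (SE, limma adjusted p = 0.00172). The Pim kinases, which phosphorylate BAD, went both ways. Pim3 fell by 0.60 (limma adjusted p = 0.000132) and Pim1 by 0.41 (0.00186), and Pim2 rose by 0.43 (0.00170). Ywhaz, whose product belongs to the adaptor proteins that hold phosphorylated BAD, fell by 0.23.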

How the data were processed

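The authors deposited 1 table of log2 values from Affymetrix arrays, with a column for each array, made with RMA per the submitters' processing notes. RMA as usually run makes the arrays' distributions alike, which takes out most of any shift common to most genes, but the deposited columns were not identical in distribution, with medians of 1.89 to 1.95. The values reached 11.5, from which the log base was taken to be 2, and version and build are not given in the sources used here. Precision is limited by the number of arrays, 3 per group.

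Of 65956 probe sets, 31080 were annotated to 1 gene, 1670 to several and 33206 were not listed, with symbols updated by Entrez ID through RefSeq genes of GRCm38.p6. For 357 of 30627 symbols with more than 1 probe set the brightest was used. Genes with a mean under 1.92, the median of all probe sets, were left out, which kept 19010. Knockout and control were compared in limma 3.58.1 (R 4.3.3, lmFit and eBayes, two-sided, Benjamini-Hochberg over all genes kept, threshold 0.05), a fit tested on simulated data. Pairs of members had an exact permutation test.

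The members, lists and tests were chosen with earlier results of these data known. Named genes are the members and, of each list, up to 6 passing genes by adjusted p with its highest and lowest change. For the member with the largest change of each role, the 3 genes of highest correlation are named, with provisional, mitochondrial and small RNA symbols left out. The other genes named (Bik, Hrk, Bok, Xiap, Casp8, Foxo4, Trp53, Trp63, Bax and markers) are members of the lists chosen after their values were seen.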

Additional observations from a re-analysis of the deposited data

How the results depend on the processing

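Over 15 alternatives the calls on Bcl2l11, Mcl1 and Bak1 held, and no member and none of the 31 other genes named from the lists changed direction. The number of members that fell was 2 in each. The number that rose was 2, but 3 with array weights and 3 after a second quantile normalization, 1 with arrays centred on their medians, and 1 to 3 when 1 array was left out. Among the wider genes the number that rose was 6 (without knockout replicate 3) to 11 when 1 array was left out, 7 without control replicate 2, and 17 after a second quantile normalization, against 13, and 9 of the 28 passing genes named lost their call in at least 1 alternative. Of all genes, 3630 rose and 2277 fell, and leaving out 1 array gave 2322 (without knockout replicate 3) to 3093 that rose. Centring each array on the median of the genes tested, added after the data had been seen, gave 2750 that rose and 2719 that fell. Bmf was left out by the stricter filter, a mean of at least 3 on the log2 scale.

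The labels give both groups replicate numbers 1 to 3 without saying that they mark pairs. Same-numbered arrays had correlations of their deviations from the group means of 0.219, 0.333 and 0.09999, so that the last missed the 0.1 needed to treat them as pairs, and knockout replicate 3 correlated best with control replicate 1 (0.129). With the replicate block, 4549 genes rose and 2618 fell, 2 members rose and 2 fell, and 14 wider genes rose and 18 fell. Bcl2 passed in 2 alternatives and Bcl2l1 in 1.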

Other observations

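Some probe sets of listed genes are annotated to more than 1 gene or gene ID, and these probe sets were in no comparison. The probe set annotated to both Bcl2a1a and Bcl2a1b, which is not the one compared for Bcl2a1a, had 1.61, 1.63 and 1.82 in knockout arrays and 1.92, 1.77 and 1.74 in control arrays, all at or under the dim level. That of Huwe1, whose product MULE marks MCL1 for degradation, and a microRNA gene had 6.92, 6.91 and 6.87 in knockout arrays and 7.06, 7.15 and 6.99 in control arrays, with no overlap. That of Bnip3l, a BH3-like gene of mitochondrial clearance, had 4.93, 4.91 and 5.03 in knockout arrays and 5.19, 5.19 and 5.24 in control arrays, again all lower in the knockout. That of Naip6 lay at 4.89 or above in knockout arrays and at 4.66 or below in control arrays. These differences were not tested.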
